A study of Mus musculus with 8 samples.

Results

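Solute carriers are membrane proteins that move nutrients, ions, metals and metabolites across the plasma membrane and the membranes of mitochondria, lysosomes and the Golgi. Most work as exchangers or cotransporters, so that the gradient of one solute drives the movement of another, and several are inactive without a partner protein. In antigen-presenting cells they are known for feeding amino acids to growth signalling, for setting the pH and metal content of phagosomes, and for placing peptide and nucleoside transporters in the endolysosomes where Toll-like receptors signal. The set described here holds protein-coding mouse genes whose symbol has the form Slc, a family number, the letter a and a member number. Members were chosen by their measured level: a gene entered when its deposited CPM (its count scaled to the library's total count) was 1 or more in both libraries of at least 1 group. The glucose transporters Slc2a1 and Slc2a3 and the lactate transporters Slc16a1 and Slc16a3 were left out. Of 55487 genes in the files, 342 matched the symbol pattern, 183 of these met the level rule, and 179 remained after the 4 were left out.

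The RNA came from conventional dendritic cells of the spleen of untreated C57BL/6 mice, about 100000 sorted cells per library, and was sequenced in 8 libraries. Such cells show captured antigen to T cells, cDC1 chiefly to CD8 and cDC2 chiefly to CD4 T cells. Both cell types were taken from wild-type mice, cDC1 also from Zeb2 -165(d1+2+3) animals (Zeb2 mutant cDC1) and cDC2 also from Irf8 +32-/- animals (Irf8 mutant cDC2). Each of these 4 groups had 2 libraries, numbered 2 and 3. Both genotypes are named after regulatory elements at a distance from the gene, so the level of the Zeb2 or Irf8 transcript is not a check of the deleted part. Zeb2 was at 2.09 and 2.10 CPM in wild-type cDC1 and 2.23 and 3.54 CPM in Zeb2 mutant cDC1, and Irf8 at 126 and 104 CPM in wild-type cDC2 and 147 and 120 CPM in Irf8 mutant cDC2. Each mutant genotype was profiled in 1 cell type, so cell type and genotype both differ between the mutant groups. Whether a library came from 1 animal or from pooled animals is not given in the sources used here, so the spread that the tests rest on may be technical.

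Libraries held 49380686 to 58611821 counts, and the defining genes followed the labels: Xcr1, a chemokine receptor of cDC1, was at 658 CPM or more in the 4 cDC1 libraries and at 6.27 CPM or less in the 4 cDC2 libraries, and Sirpa, a surface receptor of cDC2, showed the opposite. Genes with a count numbered 25993 in wild-type cDC1 replicate 2 and 32358 in wild-type cDC1 replicate 3, the extremes of the series. The other libraries had 27547 to 29775, and the part of this spread in the results was not tested. All CPM values other than those of the level rule are normalised, that is, divided by the library's TMM scaling factor. Of 5 red pulp macrophage genes the summed level was 60.1 to 88.0 CPM in cDC1 and 318 to 396 CPM in cDC2. Of 4 monocyte genes it was 62.3 to 97.0 CPM in cDC1 and 500.5 to 670.4 CPM in cDC2. Most of the cDC2 sums was Adgre1 among the macrophage genes (204 to 243 CPM) and Csf1r among the monocyte genes (466 to 623 CPM). Ly6c2 was higher in cDC1 (7.93 to 12.6 against 2.24 to 5.37 CPM), Ccr2 and Hmox1 overlapped between cell types, and the rest were higher in cDC2. The sums therefore moved with each member that was higher in cDC2, and the part of these genes in those results was not tested. In bulk RNA, fewer cells of a type and less RNA per cell cannot be told apart.

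Of the 179 members, 155 met the level rule in all 4 groups and 158 in both cell types. In cDC1 163 members met it in wild type and 160 in the Zeb2 mutant, and in cDC2 170 met it in wild type and 169 in the Irf8 mutant. Just inside the rule were the vesicular amine transporter Slc18a1 at a deciding CPM of 1.02, the amino acid transporter Slc6a19 at 1.11 and the cation exchanger Slc24a5 at 1.12. Just outside it were Slc25a27 at 0.992, Slc16a5 at 0.990 and Slc43a1 at 0.957. By substrate, 38 members were mitochondrial carriers, 31 carried amino acids, peptides and amines, 28 carried inorganic ions or set pH, and 24 carried metals. A further 16 carried vitamins, heme, choline or lipids, 13 carried carboxylates and other organic ions, 12 carried nucleosides, nucleotides or nucleotide sugars, and 10 carried sugars and polyols. The last 7 were 3 members with other substrates and 4 that share the symbol but are not transporters by function, among them Slc9a3r1 and Slc9a3r2, which are scaffold proteins.

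Light chains of the Slc7 family differed in opposite directions between the cell types, and the sequence before the gene start is therefore shown for 3 of them, together with Slc4a8, a sodium-driven bicarbonate transporter. These 4 were chosen after their values were seen. The sequences are from RefSeq, build GRCm38.p6, and end where the gene begins in the files or at the RefSeq start. They lie at chr14:54781947-54782136 (minus strand) for Slc7a8, chr14:54417781-54417952 (minus strand, 1 of 5 listed starts) for Slc7a7, chr3:50443615-50443863 (minus strand) for Slc7a11 and chr15:100761497-100761746 (plus strand) for Slc4a8. Capitals mark matches, on either strand, to any of 6 short motifs named after the sequences.
Slc7a8: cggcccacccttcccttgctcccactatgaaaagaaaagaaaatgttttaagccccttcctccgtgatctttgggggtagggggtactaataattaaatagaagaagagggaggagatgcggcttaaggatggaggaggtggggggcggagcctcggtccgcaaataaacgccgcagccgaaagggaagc
Slc7a7: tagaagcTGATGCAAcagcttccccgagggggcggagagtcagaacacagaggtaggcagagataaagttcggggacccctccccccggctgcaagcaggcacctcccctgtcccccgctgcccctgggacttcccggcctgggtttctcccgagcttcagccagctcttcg
Slc7a11: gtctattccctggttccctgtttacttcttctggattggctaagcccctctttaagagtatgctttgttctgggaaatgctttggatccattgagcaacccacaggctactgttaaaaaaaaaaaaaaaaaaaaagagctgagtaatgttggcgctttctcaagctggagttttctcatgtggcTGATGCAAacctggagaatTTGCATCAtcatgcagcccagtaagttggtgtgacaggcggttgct
Slc4a8: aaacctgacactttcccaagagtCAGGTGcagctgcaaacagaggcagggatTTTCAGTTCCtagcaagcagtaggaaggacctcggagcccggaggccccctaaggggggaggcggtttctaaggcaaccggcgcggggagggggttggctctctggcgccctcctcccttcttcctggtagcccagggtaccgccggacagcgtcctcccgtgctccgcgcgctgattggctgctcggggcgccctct

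The motifs searched on both strands were TGATGCAA (the core of the amino acid response element, read by Atf4), TGACNNNGC (the core of the antioxidant response element), TGANTCA (AP-1), CACCTG (the E-box read by Zeb factors), the ETS-IRF composite element (GGAA, a gap of 2 bases, GAAA) and the interferon-stimulated response element (GAAA, a gap of 2 bases, GAAA). TGATGCAA and TGACNNNGC were added after the Slc7a11 sequence had been seen. Of the 179 members, 137 had an entry, with 185 starts among 32851 starts of all genes. TGATGCAA was present in the 250 bases before 0.791% of all starts and before 3 starts of members, those of Slc7a11 (with 2 matches on opposite strands), Slc7a7 and the sugar transporter Slc50a1. CACCTG was present before 17.2% of all starts, 18.4% of member starts, 25.6% of starts of members higher in wild-type cDC1 and 23.2% of those lower. The ETS-IRF element was present before 2.3% of all starts, 0.0% of starts of members higher in wild-type cDC1 and 7.14% of those lower, which is 4 starts, that of Slc4a8 among them. TGACNNNGC was present before 10.2% of all starts and 15.7% of member starts. By call it was before 28.2% of starts of members higher in wild-type cDC1, 10.7% of those lower and 13.3% of those not past the test. TGANTCA was present before 6.75% of all starts, 5.13% of starts of members higher in wild-type cDC1 and 7.14% of those lower. In that order the interferon-stimulated element was present before 2.98%, 0.0% and 0.0%. Starts were counted, so a gene with several starts, such as Slc25a14 or Slc29a1, can count more than once. Slc7a8 had no match to any of the 6 in the stretch shown. A match is a description of these letters only.

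The first comparison asked how the 2 wild-type cell types differ. Among the 179 members, 39 were higher and 51 were lower in cDC1 than in cDC2 (edgeR's quasi-likelihood test, Benjamini-Hochberg adjusted p under 0.05 over 20631 genes), where 14.2% of all tested genes were higher and 15.9% lower. Among the 13527 genes that met the same level rule the background was 20.6% higher and 22.8% lower, against 21.8% and 28.5% of the members. A member that reached 1 CPM only in the cell type where it is high had to differ, so the counts were also taken above a mean of 5 CPM: 34 of 145 members were higher and 42 lower, 23.4% and 29.0%, against 22.5% and 24.9% of all genes at that level. The share of members called was thus near the background of genes at the same level. The median log2 fold change of members was -0.09, against 0.03 over all tested genes, and at a mean of 5 CPM or more it was -0.0026 against -0.020. Without wild-type cDC2 replicate 3 the number higher was 25 in place of 39. Of the 77 called members that met the level rule in both cell types, 51 passed the test under every alternative in which they were tested, and none of these 77 changed sign.

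**Figure D1:**
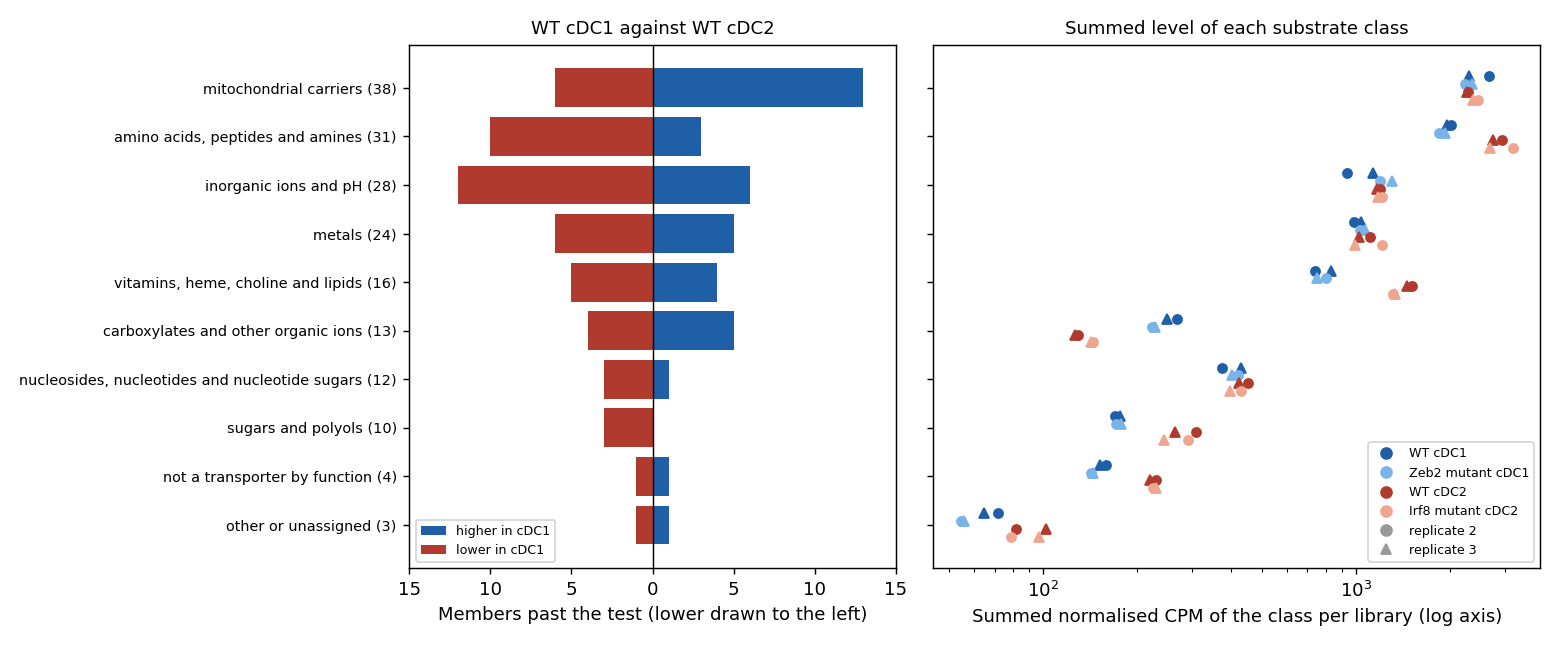
Substrate classes in the 2 cell types. Left, the number of members of each class (class size in brackets) that passed the test in wild-type cDC1 against wild-type cDC2, with lower ones drawn to the left. Right, the summed normalised CPM of each class in each of the 8 libraries on a log axis, to be compared within a row. Mitochondrial carriers had 13 higher and 6 lower of 38 members, and amino acid carriers 3 and 10 of 31. Of all genes that met the level rule 20.6% were higher and 22.8% lower. The organic ion class had the higher sums in cDC1.

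Amino acid, peptide and amine carriers were the class in which calls leaned most to cDC2 in number: 3 of 31 were higher in cDC1 and 10 lower, with a median log2 fold change of -0.32. Of the 31, 2 met the level rule in cDC1 only and 2 in cDC2 only, and their difference follows from the rule. Each class count is to be read beside the 20.6% higher and 22.8% lower among all genes that met the level rule. Differences between classes were not tested. Their summed level was 1950.3 and 2017 CPM in wild-type cDC1 and 2744 and 2931 CPM in wild-type cDC2, and the mutant groups fell on the same sides, at 1836 and 1922 CPM in Zeb2 mutant cDC1 and 2691 and 3173 CPM in Irf8 mutant cDC2. The heavy chain Slc3a2, which carries several Slc7 light chains to the cell surface, was among the most abundant members, with a mean of 129 FPKM (the deposited CPM per kilobase of exon) over 8 libraries. It was at 519 and 323 CPM in wild-type cDC1 and 545 and 509 CPM in wild-type cDC2, a difference that did not pass the test (adjusted p = 0.269). Without wild-type cDC1 replicate 2 its log2 fold change was -0.71. Between the mutant groups Slc3a2 was called lower in cDC1 (log2 fold change -0.63), a call that several alternatives lost.

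The light chains that pair with Slc3a2 did not move together. Slc7a8, an exchanger of neutral amino acids, was at 31.5 and 36.5 CPM in wild-type cDC1 and 1.87 and 2.04 CPM in wild-type cDC2. This was a 17.4-fold difference (log2 fold change 4.12 ± 0.32 (SE), adjusted p = 5.71e-06, edgeR), and the mutant groups differed in the same direction, at 34.4 and 26.5 CPM in cDC1 and 4.39 and 2.2 CPM in cDC2. Slc7a11, which takes up cystine in exchange for glutamate and so feeds glutathione synthesis, was the reverse, at 2.47 and 2.00 CPM in wild-type cDC1 and 28.8 and 29.8 CPM in wild-type cDC2. It was 13.1-fold lower in cDC1 (log2 fold change -3.71 ± 0.28, adjusted p = 5.05e-06), and the mutant cDC2 libraries held the highest values, 60.3 and 35.2 CPM. For both genes all 4 libraries of one cell type lay above all 4 of the other. Slc7a7, an exchanger of cationic and neutral amino acids, was 2.09-fold lower in cDC1 (11.3 and 13.8 against 28.8 and 23.6 CPM, adjusted p = 0.00194). Slc7a6, its close relative, was 1.36-fold higher (adjusted p = 0.0398) but lost the call without any one of the 4 wild-type libraries, with adjusted p of 0.0616 to 0.233. Slc7a5, the main leucine exchanger, was at 59.4 and 74.4 CPM in wild-type cDC1 and 53.0 and 49.0 CPM in wild-type cDC2, which did not pass (adjusted p = 0.0804). Without wild-type cDC1 replicate 2 its log2 fold change was 0.54.

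Other amino acid carriers called in wild type were mostly higher in cDC2. Slc43a2, a facilitator for large neutral amino acids, was at 29.7 and 38.4 CPM in wild-type cDC1 and 245 and 211 CPM in wild-type cDC2 (6.68-fold lower in cDC1, adjusted p = 1.45e-06). Slc6a12, a betaine and GABA transporter, was 7.13-fold lower in cDC1, and Slc36a4, a lysosomal family member, was 2.49-fold lower. The sodium-coupled glutamine and alanine transporters Slc38a1 and Slc38a2 were 1.85-fold and 1.74-fold lower in cDC1, and Slc38a1 lost the call when a trend of counts with gene length was removed (adjusted p = 0.121). Slc1a5, the glutamine exchanger, was 1.41-fold higher in cDC1 (310.2 and 356 against 256 and 218 CPM, adjusted p = 0.0192) and lost the call without wild-type cDC2 replicate 3 (adjusted p = 0.192). The lysosomal amino acid sensor Slc38a9 was at 26.9 to 39.2 CPM in all 8 libraries, and its wild-type difference did not pass the test (adjusted p = 0.854).

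The endolysosomal histidine and peptide transporters were both higher in cDC2. Slc15a4, which is known for its part in Toll-like receptor signalling in endolysosomes, was at 32.7 and 41.7 CPM in wild-type cDC1 and 140.2 and 129 CPM in wild-type cDC2 (3.63-fold lower in cDC1, adjusted p = 1.28e-05). Slc15a3 was at 3.32 and 2.53 CPM in wild-type cDC1 and 16 and 16.6 CPM in wild-type cDC2 (5.58-fold lower, adjusted p = 9.44e-05). In the mutant groups Slc15a4 kept similar values, 37.2 and 37.3 against 142 and 115 CPM. Slc15a3 was at 1.79 and 1.84 CPM in Zeb2 mutant cDC1 and 41.6 and 23.3 CPM in Irf8 mutant cDC2, a log2 fold change of -4.16 against -2.48 in wild type, and the difference between those did not pass the test (edgeR adjusted p = 0.325).

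**Figure D2:**
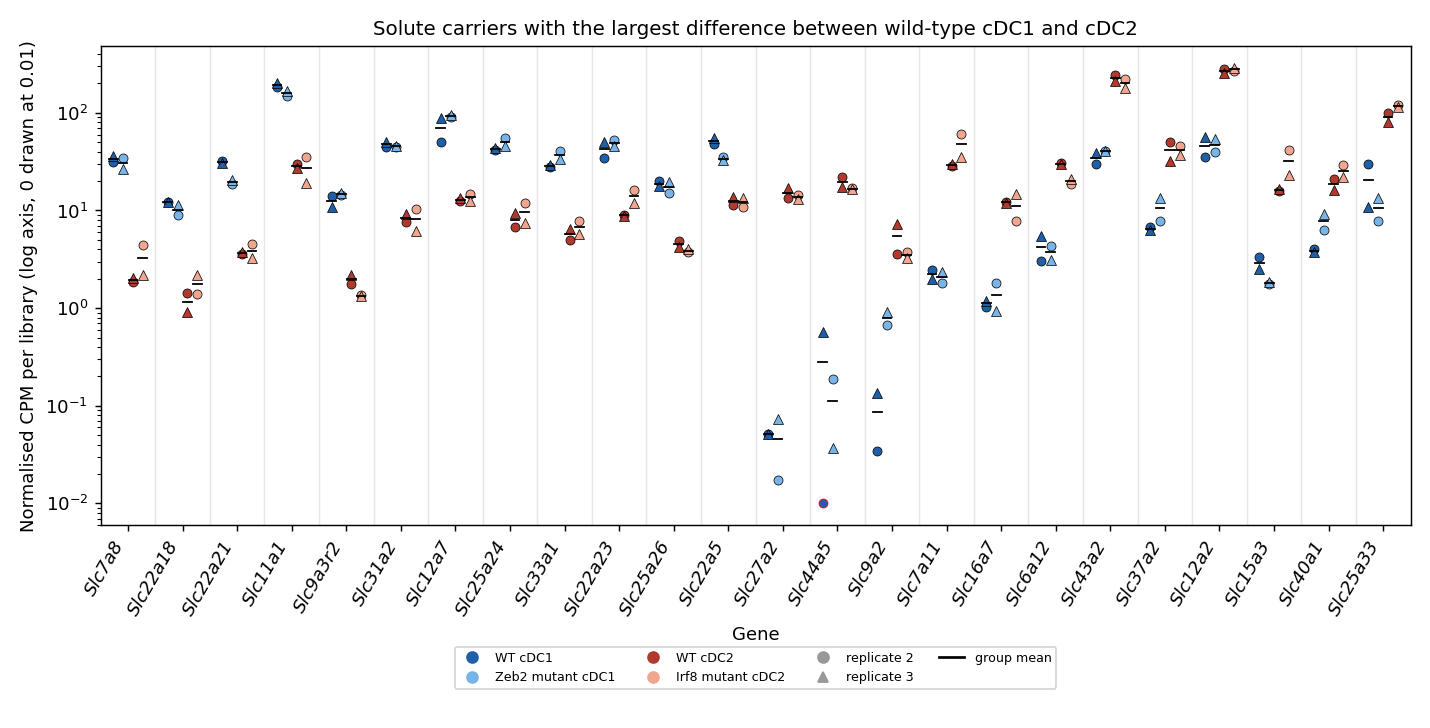
Normalised CPM in each of the 8 libraries, on a log axis, of the 12 members with the largest wild-type difference in each direction among those called and at 5 CPM or more. Blue points are cDC1 and red points cDC2, with lighter tones for the mutant groups, bars are group means of 2 libraries, and the 1 value of 0 (Slc44a5) is drawn at the foot of the axis with a red edge. From Slc7a8 to Slc22a5 the blue points lie above the red ones, and from Slc27a2 to Slc25a33 the order is reversed. In Slc9a2 both Zeb2 mutant cDC1 libraries lie above the wild-type cDC1 ones, and in Slc15a3 and Slc7a11 both Irf8 mutant cDC2 libraries lie above the wild-type cDC2 ones; Slc27a2, Slc44a5 and Slc9a2 met the level rule in cDC2 only.

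Metal carriers were called in both directions. Slc11a1, which pumps iron and manganese out of phagosomes, was at 186 and 201 CPM in wild-type cDC1 and 30.2 and 27.6 CPM in wild-type cDC2 (6.70-fold higher in cDC1, log2 fold change 2.74 ± 0.25, adjusted p = 1.79e-05). Slc40a1, which exports iron from the cell, was at 4.04 and 3.74 CPM in wild-type cDC1 and 21.1 and 16.1 CPM in wild-type cDC2 (4.77-fold lower, log2 fold change -2.25 ± 0.26, adjusted p = 8.78e-05). Slc11a2, the endosomal iron importer, was 1.61-fold higher in cDC1 (adjusted p = 0.00474), with an adjusted p of 0.052 without wild-type cDC2 replicate 3. The copper transporter Slc31a2 was 5.63-fold higher in cDC1, at 44.5 and 50.5 against 7.67 and 9.21 CPM. The magnesium transporters Slc41a2 and Slc41a1 went in opposite directions, 3.21-fold higher and 2.42-fold lower in cDC1. Of 24 metal carriers 5 were higher and 6 lower, beside 20.6% and 22.8% of all genes that met the level rule. The summed level overlapped between cell types, at 987 and 1035 CPM in wild-type cDC1 and 1107 and 1019 CPM in wild-type cDC2. The zinc and iron importer Slc39a8 was at 3.14 to 4.70 CPM in all 8 libraries and did not pass the test (adjusted p = 0.837).

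Among carriers of inorganic ions 6 of 28 were higher and 12 lower in cDC1, but 6 of the 28 met the level rule in cDC2 only. The difference of those 6 follows from the rule. Chloride cotransporters of the Slc12 family showed both directions. Slc12a7, a potassium and chloride cotransporter, was at 50.4 and 88.4 CPM in wild-type cDC1 and 12.4 and 13.4 CPM in wild-type cDC2 (5.39-fold higher, adjusted p = 3.18e-05). Slc12a2, which brings sodium, potassium and chloride into the cell, was at 34.9 and 57.2 CPM in wild-type cDC1 and 284 and 255 CPM in wild-type cDC2 (5.85-fold lower, adjusted p = 1.85e-05). Slc12a4, also a potassium and chloride cotransporter, was 1.66-fold lower in cDC1 (adjusted p of 0.0959 and 0.0516 without wild-type cDC2 replicate 2 or 3), and Slc12a9 was 2.15-fold higher. Of the 12 inorganic ion carriers lower in cDC1, 6 passed under every alternative in which they were tested. A separate fit of genes with a mean of 5 CPM or more, adjusted over those genes, called 7 of 20 lower. The median log2 fold change of the class was -0.052 in that fit, in place of -0.68.

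Sodium and proton exchangers of endomembranes were among the members higher in cDC1. Slc9a9, of endosomes, was 2.67-fold higher in cDC1 (174 and 179 against 66.0 and 66.2 CPM, adjusted p = 0.00172), and Slc9a7, of the trans-Golgi network, was 1.55-fold higher (77.1 and 99.1 against 58.6 and 55.5 CPM, adjusted p = 0.00793). Slc9a7 lost the call without wild-type cDC2 replicate 3 (adjusted p = 0.0734). Slc9a2 met the level rule in cDC2 only and is described with the genes of that kind. The endomembrane exchanger Slc9a8 did not pass (adjusted p = 0.434), nor did Slc9a5 (adjusted p = 0.431). The bicarbonate transporters also differed in direction. Slc4a7, which brings bicarbonate in with sodium, was 2.16-fold higher in cDC1 (95.5 and 110.0 against 44.4 and 50.7 CPM, adjusted p = 0.000208), and Slc4a8 was 2.67-fold lower (38.4 and 55.2 against 125 and 125 CPM, adjusted p = 0.000153).

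Mitochondrial carriers were the largest class, and their number higher in cDC1 was the largest too. Of 38, 13 were higher and 6 lower, beside 20.6% and 22.8% of all genes that met the level rule. In this class 1 member met the level rule in cDC1 only and 1 in cDC2 only. The median log2 fold change of the class was 0.22. Of the 13, 5 passed under every alternative in which they were tested, and without wild-type cDC2 replicate 2 or replicate 3 the count was 6. The 5 were Slc25a24, an exchanger of ATP-magnesium and phosphate (5.26-fold higher), Slc25a26, which imports S-adenosylmethionine (4.16-fold), Slc25a38, a glycine importer needed for heme synthesis (3.29-fold), Slc25a20, which carries acylcarnitines (2.89-fold), and Slc25a39, which carries glutathione (1.66-fold). Slc25a38 was at 92.0 and 82.0 CPM in wild-type cDC1 and 26.0 and 26.8 CPM in wild-type cDC2 (adjusted p = 1.31e-05), with 89.1 and 95.2 against 32.8 and 26.0 CPM in the mutants. All 4 cDC1 libraries lay above all 4 cDC2 libraries.

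The iron carriers of mitochondria were opposed. Slc25a37 (mitoferrin 1) was 2.74-fold lower in cDC1 (6.72 and 9.23 against 20.2 and 23.4 CPM, adjusted p = 0.000655), and Slc25a28 (mitoferrin 2) was 1.97-fold higher (69.5 and 47.7 against 30.5 and 29.0 CPM, adjusted p = 0.00918). Slc25a28 lost the call without wild-type cDC1 replicate 2 (adjusted p = 0.0595) and without wild-type cDC2 replicate 3 (adjusted p = 0.0586), and in the mutants its difference did not pass. The pyrimidine nucleotide carriers Slc25a33 and Slc25a36 were both lower in cDC1. Slc25a33 was at 29.8 and 11 CPM in wild-type cDC1 and 100.1 and 80.0 CPM in wild-type cDC2 (4.42-fold, adjusted p = 0.00825, and 0.0754 without wild-type cDC2 replicate 2), and Slc25a36 was 1.64-fold lower (adjusted p = 0.00523, and 0.0886 without wild-type cDC2 replicate 3). The ADP and ATP exchanger Slc25a5 had the highest level of all members per length, a mean of 273 FPKM, and was 1.37-fold higher in cDC1 (adjusted p = 0.0174). That difference fell to a log2 fold change of 0.07 with an adjusted p of 0.661 when the trend with gene length was removed, and the adjusted p was 0.0817 and 0.131 without wild-type cDC2 replicate 2 or 3. The phosphate carrier Slc25a3 was 1.73-fold lower in cDC1 (380.1 and 264 against 545 and 567 CPM, adjusted p = 0.00478).

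Carriers of carboxylates and other organic ions had the higher summed level in cDC1, 267 and 249 CPM against 129 and 126 CPM in wild type, with 5 of 13 members higher and 4 lower. Of these 13, 2 met the level rule in cDC2 only. The separate fit of genes with a mean of 5 CPM or more tested 10 of the class and called 7 higher and 2 lower. Among the 5 were the carnitine transporter Slc22a5, at 47.7 and 55.6 against 11.5 and 13.6 CPM (4.11-fold, adjusted p = 1.19e-05), and 3 other Slc22 genes. Slc22a21, a paralog of Slc22a5, was 8.57-fold higher, Slc22a18 10.6-fold and Slc22a23 4.76-fold. How reads shared by Slc22a5 and Slc22a21 were counted is not given in the sources used here, so the split between those paralogs is uncertain. Together with Slc25a20 these included the carriers of carnitine at the plasma membrane and of acylcarnitine at the mitochondrion. The monocarboxylate transporter Slc16a7 was lower in cDC1, at 1.04 and 1.20 against 12.3 and 12 CPM (10.9-fold, adjusted p = 0.000103), and the lysosomal sialic acid exporter Slc17a5 was 1.81-fold lower (adjusted p of 0.0758 and 0.0611 without wild-type cDC2 replicate 2 or 3). Slc16a6 was 1.90-fold higher (88.6 and 46.5 against 35.8 and 35.3 CPM, adjusted p = 0.0151), and without wild-type cDC1 replicate 2 its log2 fold change was 0.38 with an adjusted p of 0.0753. It also lost the call without wild-type cDC2 replicate 2 or 3 (adjusted p of 0.0728 and 0.0778).

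In the class of vitamin, heme, choline and lipid carriers 4 of 16 members were higher in cDC1 and 5 lower. Of these 16, 2 met the level rule in cDC1 only and 2 in cDC2 only, and their difference follows from the rule. The separate fit of genes with a mean of 5 CPM or more tested 13 of the class and called 2 higher and 5 lower. The choline transporter-like genes Slc44a1 and Slc44a2 were 3.32-fold and 3.54-fold lower in cDC1, Slc44a2 at 158 and 202 CPM in wild-type cDC1 and 647 and 625 CPM in wild-type cDC2 (adjusted p = 5.60e-06). The class summed to 738 and 831 CPM in wild-type cDC1 and 1512 and 1450.5 CPM in wild-type cDC2, of which Slc44a2 was the largest part in cDC2. In that class Slc33a1, which brings acetyl-CoA into the endoplasmic reticulum, went the other way, at 27.9 and 29.0 against 5.0 and 6.41 CPM (4.98-fold higher in cDC1, adjusted p = 2.03e-05). The lysosomal Slc46a3 was the second most abundant member per length, at a mean of 138 FPKM, and did not pass the test (313 and 336 against 422 and 398 CPM, adjusted p = 0.158). The folate carrier Slc19a1 was 1.58-fold higher in cDC1 (adjusted p = 0.0398) but passed in 6 of 15 alternatives only.

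Of 12 nucleoside, nucleotide and nucleotide sugar carriers 1 was higher in cDC1 and 3 lower, and 1 of the 12 met the level rule in cDC2 only. The equilibrative nucleoside transporters of the plasma membrane were lower in cDC1, Slc29a1 by 2.78-fold (26.5 and 33.7 against 87.6 and 79.9 CPM, adjusted p = 9.33e-05) and Slc29a2 by 3.05-fold. The lysosomal Slc29a3 was at 38.7 and 72.1 CPM in wild-type cDC1 and 78.3 and 77.2 CPM in wild-type cDC2, which did not pass (adjusted p = 0.144). Among 10 sugar and polyol carriers 3 passed the test, each lower in cDC1, and DESeq2 called 5, each lower. Of these 10, 1 met the level rule in cDC2 only. Slc37a2, a sugar phosphate antiporter, was 6.31-fold lower (6.75 and 6.31 against 50.6 and 31.8 CPM, adjusted p = 6.73e-05). The lysosomal hexose transporter Slc2a6 was 3.34-fold lower (12.3 and 9.02 against 38.9 and 32.2 CPM, adjusted p = 0.00014), and Slc45a4 was 3.37-fold lower. The scaffold proteins differed in direction: Slc9a3r2 was 6.27-fold higher in cDC1 and Slc9a3r1 1.89-fold lower, although neither is a transporter.

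A set of 21 members met the level rule in 1 cell type only, 6 in cDC1 and 15 in cDC2, so their difference follows from the rule and is given without a test. Slc27a2, which activates and takes up very long chain fatty acids, was at 13.4 and 16.9 CPM in wild-type cDC2 and 14.4 and 13.2 CPM in Irf8 mutant cDC2, and between 0.0172 and 0.0737 CPM in the 4 cDC1 libraries. Slc44a5, a choline transporter-like gene, was at 16.7 to 22.0 CPM in the 4 cDC2 libraries and at 0.564 CPM or less in the 4 cDC1 libraries, with no count in wild-type cDC1 replicate 2. Slc9a2, the plasma membrane sodium and proton exchanger, was at 3.24 to 7.33 CPM in cDC2, at 0.67 and 0.921 CPM in Zeb2 mutant cDC1 and at 0.0345 and 0.137 CPM in wild-type cDC1. The sodium and calcium exchanger Slc8a2 was at 1.34 to 2.75 CPM in cDC2 and at 0.103 CPM or less in cDC1. The riboflavin transporter Slc52a3 was at 3.04 to 3.69 CPM in cDC1 and 0.745 to 1.04 CPM in cDC2, and the others had at most 7.02 CPM in any library.

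The 4 mutant libraries gave a further comparison of cDC1 with cDC2, in which genotype differs too. Its group means use none of the wild-type libraries. Both comparisons share the estimate of the spread over all 8 libraries, however, so the tests are not independent. There 36 members were higher and 46 lower in Zeb2 mutant cDC1 than in Irf8 mutant cDC2, against 12.8% and 15% of all tested genes. Among genes that met the level rule the background was 18.8% and 21.1%, against 20.1% and 25.7% of the members, and at a mean of 5 CPM or more it was 21.0% and 22.5%, against 22.1% and 25.5% of 145 members, so these shares too were near the background. Of the 39 members higher in wild-type cDC1, 32 were also higher in the mutants, and of the 51 lower, 40 were also lower. The 39 and the 51 include members that met the level rule in 1 cell type only, whose difference follows from the rule. The share of all genes called in both comparisons was not counted. A further 4 were higher and 6 lower in the mutants alone, and no member was called in opposite directions. Of the 77 called in wild type that met the level rule in both cell types, 75 (97.4%) had the same sign in the mutants, as did 97.7% of all 6219 genes called in wild type. The exceptions were the sodium and calcium exchanger Slc8a1, with a log2 fold change of -0.77 in wild type and 0.25 in the mutants, and the zinc importer Slc39a10, with -0.71 and 0.11. Both wild-type calls were easily lost. That of Slc8a1 was lost without wild-type cDC2 replicate 3 (adjusted p = 0.0954) and with the length trend removed (log2 fold change -0.33, adjusted p = 0.12). That of Slc39a10 was lost in 7 alternatives, and without wild-type cDC1 replicate 2 its log2 fold change was -0.39 (adjusted p = 0.0877).

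**Figure D3:**
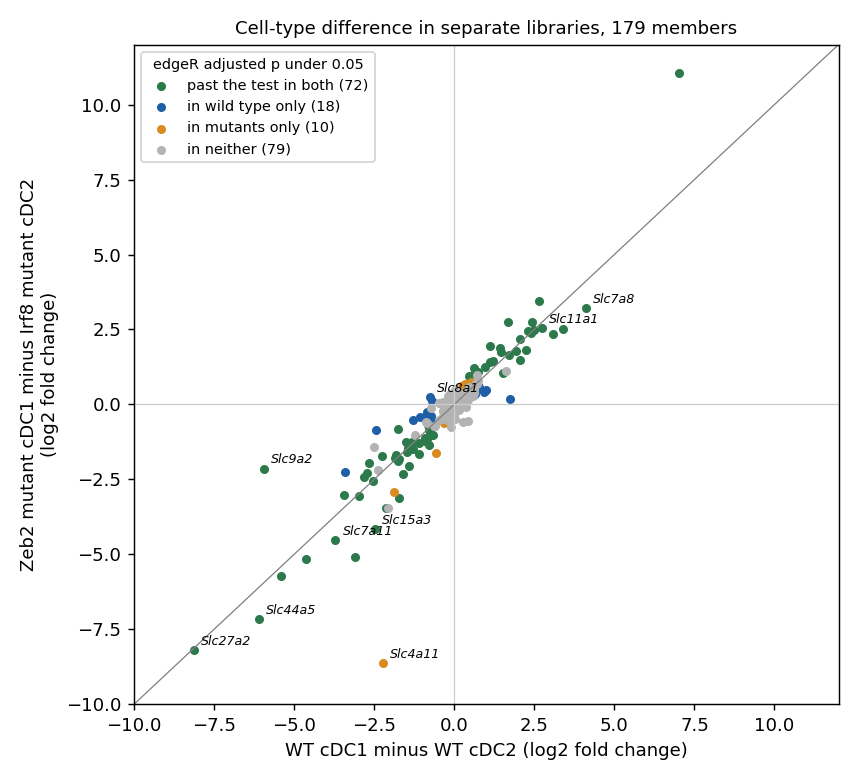
Log2 fold change between cell types for the 179 members, in wild type (horizontal axis) and in the mutant groups (vertical axis), with the line of equal values. Points are coloured by which comparison they passed, 72 in both; values of genes with a group at or near 0 counts, Slc4a11 among them, depend on the prior count of the fit. Slc9a2 lies above the line and Slc8a1 crosses zero.

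Over all 8 libraries, 52 members had every cDC1 library above every cDC2 library and 60 the reverse, while 67 overlapped. The same held for 26.3% and 26.8% of all genes that met the level rule, against 29.1% and 33.5% of members. Mitochondrial carriers had 17 of 38 with all cDC1 libraries on top and 8 with all cDC2 libraries on top, and amino acid carriers had 5 and 13 of 31. Sugar carriers had 0 and 5 of 10. Summed over all members, the level was 8100 to 8397 CPM in the 4 cDC1 libraries and 9663 to 10537 CPM in the 4 cDC2 libraries. The 10 most abundant members made up 33.8% to 38.6% of that sum in cDC1 and 43.6% to 44.9% in cDC2.

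The next comparison asked what the Zeb2 genotype changed in cDC1. The number of members called was 0 by edgeR, where 0.0679% of all tested genes were called. An unadjusted p under 0.05 was found for 27 of 179 members, a larger share than the 10.5% of all tested genes. Genes at the same level were not counted for unadjusted p. DESeq2 called 4 members higher and 2 lower, where it called 1.33% of all tested genes. Without wild-type cDC1 replicate 3 edgeR called 12 higher and 4 lower, and without wild-type cDC1 replicate 2 it called 0 higher and 1 lower, so the count rested on which wild-type cDC1 library was used. The smallest p was that of Slc4a7, the bicarbonate importer, at 95.5 and 110.0 CPM in wild-type cDC1 and 181 and 199 CPM in Zeb2 mutant cDC1. This was a 1.85-fold difference (log2 fold change 0.89 ± 0.14) with an adjusted p of 0.0636 in edgeR and 3.35e-05 in DESeq2, and both mutant libraries lay above both wild-type ones.

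Slc8a1 and Slc9a2 followed. Slc8a1 was at 34.5 and 45.1 CPM in wild-type cDC1 and 64.4 and 72.4 CPM in Zeb2 mutant cDC1, near its level of 54.9 to 75.2 CPM in the 4 cDC2 libraries (1.72-fold, edgeR adjusted p = 0.172, DESeq2 adjusted p = 0.00784). Slc9a2 had 10 counts in the wild-type cDC1 libraries together and was 9.29-fold higher in the mutants (edgeR adjusted p = 0.104, DESeq2 adjusted p = 0.000432). Slc6a13, a GABA and taurine transporter, was at 4.92 and 4.96 CPM in wild type and 2.17 and 2.34 CPM in the mutants (edgeR adjusted p = 0.234, DESeq2 adjusted p = 0.0248). Slc40a1 and Slc2a6 were the other members that DESeq2 called, with log2 fold changes of 1.0 and -0.83. The 4 neutrophil genes fixed as markers summed to 33.1 and 48.3 CPM in Zeb2 mutant cDC1 and to 5.11 CPM or less in wild-type cDC1. They were higher in the Irf8 mutant than in wild-type cDC2 as well, and their part in these values was not tested.

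**Figure D4:**
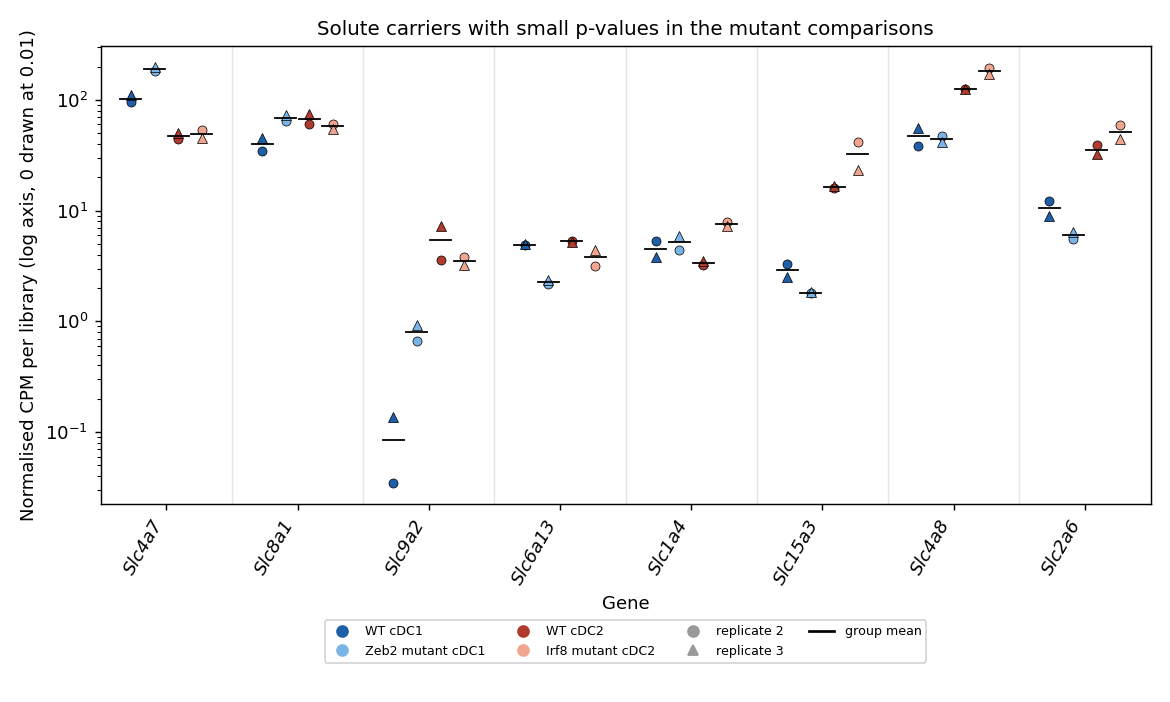
Normalised CPM in each library, on a log axis, of members with small p-values in the mutant comparisons. In Slc4a7 and Slc8a1 both Zeb2 mutant cDC1 libraries lie above both wild-type cDC1 libraries, and in Slc1a4 and Slc15a3 both Irf8 mutant cDC2 libraries lie above both wild-type cDC2 libraries; none passed the edgeR test.

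In cDC2 the Irf8 genotype also gave 0 members called by edgeR, where 0.0% of all tested genes were called. An unadjusted p under 0.05 was found for 20 of 179 members and for 6.36% of all tested genes. Genes at the level of the members were not counted for unadjusted p here either. DESeq2 called 1, Slc1a4, where it called 0.669% of all tested genes. Slc1a4, an exchanger of alanine, serine and cysteine, was at 3.25 and 3.51 CPM in wild-type cDC2 and 7.95 and 7.27 CPM in Irf8 mutant cDC2 (2.25-fold, edgeR adjusted p = 0.413, DESeq2 adjusted p = 0.0215). Slc15a3 was at 16 and 16.6 CPM in wild-type cDC2 and 41.6 and 23.3 CPM in Irf8 mutant cDC2 (1.99-fold, edgeR adjusted p = 0.478). Slc4a8 was at 125 and 125 CPM in wild-type cDC2 and 193 and 172 CPM in Irf8 mutant cDC2 (1.46-fold, edgeR adjusted p = 0.593). The 4 neutrophil genes summed to 23.7 and 13.7 CPM in Irf8 mutant cDC2 and to 0.200 and 4.28 CPM in wild-type cDC2, and their part was not tested. Irf8 mutant cDC2 replicate 2 had the higher value for Slc15a3 and Slc4a8. That library also held erythroid genes at a summed 59.3 CPM, against 3.42 to 11.3 CPM in the other 7, and without it the number called was again 0.

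The last comparison tested whether the genotype effect in cDC1 differed from that in cDC2. EdgeR called 0 members, where 0.0194% of all tested genes were called. An unadjusted p under 0.05 was found for 24 of 179 members and for 7.62% of all tested genes, again without a count of genes at the level of the members. DESeq2 called 5, with Slc9a2, Slc4a7 and Slc8a1 higher and Slc2a6 and Slc15a3 lower, where it called 0.683% of all tested genes. Without wild-type cDC1 replicate 3 edgeR called 9 higher and 5 lower. Slc2a6 was at 12.3 and 9.02 CPM in wild-type cDC1 and 5.52 and 6.41 CPM in Zeb2 mutant cDC1, but at 38.9 and 32.2 CPM in wild-type cDC2 and 59.0 and 44.3 CPM in Irf8 mutant cDC2 (difference of effects -1.38 ± 0.29 on the log2 scale, edgeR adjusted p = 0.279). The median size of the log2 difference over members was 0.20 for the Zeb2 genotype and 0.18 for the Irf8 genotype, against 0.71 between the wild-type cell types. Over all tested genes these medians were 0.29, 0.25 and 0.66, and over genes that met the level rule 0.22, 0.17 and 0.57.

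Other solute carriers, partner proteins, and genes of amino acid sensing and stress were read from 3 lists. Among 53 tested solute carriers with other symbols, 18 were higher and 7 lower in wild-type cDC1, beside 14.2% and 15.9% of all tested genes. Genes at the level of the list genes were not counted for any of the 3 lists. The organic anion transporter Slco3a1 was at 272 and 245 CPM in cDC1 and 11.7 and 10.9 CPM in cDC2 (log2 fold change 4.51, adjusted p = 5.38e-08). The heme and choline transporter Flvcr1 was at 35.4 and 31.6 CPM in cDC1 and 317 and 307 CPM in cDC2 (log2 fold change -3.22, adjusted p = 1.24e-07), on the same side as Slc44a1 and Slc44a2. Among 20 tested partner genes 4 were higher and 4 lower, beside the same background. The 4 higher ones are not among the genes given here. Emb, which escorts monocarboxylate transporters including Slc16a7, was lower in cDC1 (34.9 and 24.0 against 155 and 164 CPM), and the ferritin subunit Fth1 was lower with Slc40a1 (1588 and 1190 against 5386 and 4929 CPM). Among 36 tested genes of amino acid sensing and stress 8 were higher and 14 lower, again beside 14.2% and 15.9% of all genes. Here too the 8 higher ones are not among the genes given. The leucine sensor Sesn2 was lower in cDC1 (60.8 and 84.9 against 317 and 303 CPM). Nfe2l2, a regulator known to act on Slc7a11, was also lower (227 and 143 against 514 and 454 CPM). Atf4, which reads the amino acid response element, did not pass the test (153 and 108 against 132 and 138 CPM, edgeR adjusted p = 0.883). The part of these regulators in the level of any member was not tested, and their protein was not measured.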

How the data were processed

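RNA-seq was made from splenic cDC1 and cDC2 with the SMARTer Ultra Low kit, which does not mark strand. The submitters' processing notes name bcl2fastq, STAR, Subread featureCounts, Salmon, GRCm38 and mm10, without order. Per the file headers, the deposited columns are a whole-number count for each gene, its CPM and its FPKM. CPM and FPKM were made by the authors from those counts and the exon length, and were used for the level rule and for levels between genes. Symbols came from GENCODE M21.

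Counts were fitted with edgeR 4.0.16 in R 4.3.3: filterByExpr over 4 groups kept 20631 genes, all 179 members among them, and a robust quasi-likelihood fit with TMM scaling had 1 coefficient per group and 4 residual degrees of freedom. P-values were adjusted over all tested genes. Standard errors were recovered by dividing log2 fold changes by the root of the F statistic. Printed values are TMM-normalised CPM, and folds are ratios of group means. DESeq2 1.42.0, upper-quartile scaling, other filters, a length correction, fits without single libraries and a replicate block were alternatives, and the fit was tested on simulated counts.

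Members, classes, lists and named genes were chosen with earlier results of these data known. Named by rule were the 2 most abundant members per class, the 12 largest differences per direction, the 4 smallest p-values of each genotype comparison and a fixed set known in antigen-presenting cells; the other members and list genes were chosen after their values were seen. Some members are counted but not reported by name here. Ankh, Tasl and Samtor had no ID, and Heph and Mt2 were not tested.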

Additional observations from a re-analysis of the deposited data

How the results depend on the processing

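Each group had 2 libraries, and members with few counts in a group, such as Slc9a2 with 10 in wild-type cDC1, have imprecise folds. Leaving out 1 library left a group with 1, which was then assumed to vary like the others. Over these fits the number of members higher in wild-type cDC1 than in wild-type cDC2 ranged from 25 to 41, and the number lower from 40 to 55. For Zeb2 mutant against wild-type cDC1 it ranged from 0 to 12 higher and from 0 to 4 lower, and for the difference of the genotype effects from 0 to 9 higher and from 0 to 5 lower; the cause was not tested. DESeq2 gave 4 higher and 2 lower members for the Zeb2 genotype, 1 higher for the Irf8 genotype, and 3 higher and 2 lower for the difference of effects. With no filter on low counts these were 4 and 2, 2 higher, and 4 and 4, and among genes with a mean of 5 CPM or more 1 member was higher with the Zeb2 genotype. The level rule gave 202 members at 0.5 CPM, 166 at 2 CPM, 153 at 1 FPKM and 180 with TMM-normalised CPM.

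Named members that changed sign had not passed the test. With the length trend removed the log2 fold change in wild type was -0.18 for Slc10a3, 0.22 for Slc10a7, -0.090 for Slc48a1 and -0.29 for Slc50a1. Slc10a7 ranged from -0.21 to 0.083, Slc38a9 from -0.23 to 0.32 and Slc39a8 from -0.049 to 0.24 over the fits that left out 1 library. Of 38 named members called in wild type that met the level rule in both cell types, 30 passed under every alternative in which they were tested. Of the 82 members called between the mutant groups, 64 did.

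The replicate numbers did not pair the libraries: deviations of same-numbered libraries correlated at -0.177 to -0.00036 over 9833 genes. With the replicate block 36 members were higher and 51 lower in wild-type cDC1, 35 higher and 47 lower in the mutant cell-type comparison, and 0 were called in the other comparisons by edgeR.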
